A study of Mus musculus with 20 samples.

Results

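10 genes of the endoplasmic reticulum (ER) stress response were followed across the heart libraries: Hspa5, Hsp90b1, Calr, Sdf2l1, Dnajb9, Herpud1, Xbp1, Atf4, Ddit3 and Trib3. They were chosen by name, with earlier results of these data known, and all 10 were found among the 29339 genes of the deposited table. All 10 passed the filter on low counts, which asked for at least 10 counts in at least 3 libraries, in each comparison.

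The series compared hearts of C57BL/6 wild-type (WT) mice with those of Tecrl-/- (KO) mice at 8 weeks of age. Tecrl encodes a reductase-like protein of the ER membrane, and its loss in people causes an inherited arrhythmia. By label, 5 of the 20 libraries were WT and 5 KO among males, and 3 were WT and 7 KO among females. Their names form 2 series. The first, S1 to S12, has 3 from each group, and the second (WT1 and WT2 with TKO1 to TKO6) lacks female WT. The mice came from an animal supplier, and the sources used here do not give the deleted part of the gene. No label says how libraries of a group relate beyond being separate samples, so p-values measure the spread between these samples. The study describes fewer mice in each group than some groups here have libraries, and which libraries it used is not given in the sources used here.

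When unfolded protein builds up in the ER, sensors in its membrane start the unfolded protein response. IRE1 splices Xbp1 mRNA, cleaved ATF6 moves to the nucleus, and PERK phosphorylates eIF2alpha, which favours translation of ATF4. XBP1 and ATF6 raise chaperone and degradation genes, while ATF4 raises amino acid genes, CHOP and TRIB3. In heart muscle the sarcoplasmic reticulum, a specialised ER, also stores the calcium released at each beat.

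Checks of the labels bear on every comparison. Tecrl was not lower in the libraries labelled KO, with 63.2 to 97.01 CPM (counts scaled to a common library total) against 57.5 to 109.2 in those labelled WT. For KO against WT its log2 fold change was 0.02 among males (SE, the standard error, 0.194, adjusted p = 0.993, edgeR) and 0.23 among females (SE 0.135, adjusted p = 0.397, edgeR). Sex-linked genes went against the label in 6 libraries. S7, S8 and S9, labelled male WT, had Xist at 279 to 358 CPM and no read of Ddx3y, Eif2s3y, Uty or Kdm5d. S4, S5 and S6, labelled female KO, had Xist at no more than 0.266 CPM and 179 to 211 CPM of those Y-linked genes. In the S series the genotype label therefore coincides with sex-linked expression, and these cannot be told apart there. The library totals ran from 12540002 to 20038593 counts.

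Markers of heart muscle were high throughout, with the 5 ventricular genes summing to 7093 to 13530 FPKM (counts scaled by gene length and library total). The labels give the tissue as heart, without saying which part, and the atrial marker Bmp10 was at 0 in 11 libraries. Atrial markers stood apart in 4 libraries, S7, S9, S11 and S12, which held 1891 to 6844 FPKM of Myl7, Myl4, Sln, Nppa and Bmp10 together, against 7.11 to 444 FPKM in the other 16. S7 also held 794.6 FPKM of 5 adipocyte markers (0.0668 to 38.2 elsewhere), 157.8 FPKM of 5 B and plasma cell markers (1.64 to 7.89 elsewhere) and 131 FPKM of 5 mesothelial markers (1.68 to 49.4 elsewhere). It was highest in immediate early genes (161.4 FPKM, 38.4 to 96.2 elsewhere) and fibroblast markers (242.6, 118.0 to 211.2 elsewhere). It was lowest in ventricular (7093, 9435 to 13530 elsewhere) and red blood cell markers (40.05, 191.0 to 2411 elsewhere). In bulk tissue, a change in the number of cells of a type and a change of RNA per cell cannot be told apart.

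The promoters of the 3 chaperone genes Hspa5, Hsp90b1 and Calr are shown because they hold the ER stress motif searched here, and that of Trib3 because it holds an ATF4 motif. Each is 1 RefSeq window (GRCm38.p6) from 250 bases before to 50 bases after the RefSeq start of the gene, written 5′ to 3′ along the gene. That start can differ from the GENCODE start of the gene coordinates below, which for Hspa5 is 34771970. 3 motifs were searched on both strands: the ER stress response element (ERSE, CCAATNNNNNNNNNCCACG), the core of the unfolded protein response element (UPRE, TGACGTG) and an ATF4 element (TGATGNAA). The ERSE contains the shorter letters CCAAT and CCACG, which 37.4% and 33.0% of windows hold. Capitals mark the matches. Hspa5 lies at chr2:34771840-34772139 on the plus strand, Hsp90b1 at chr10:86705395-86705694 on the minus strand, Calr at chr8:84846882-84847181 on the minus strand, and Trib3 at chr2:152344011-152344310 on the minus strand.
Hspa5: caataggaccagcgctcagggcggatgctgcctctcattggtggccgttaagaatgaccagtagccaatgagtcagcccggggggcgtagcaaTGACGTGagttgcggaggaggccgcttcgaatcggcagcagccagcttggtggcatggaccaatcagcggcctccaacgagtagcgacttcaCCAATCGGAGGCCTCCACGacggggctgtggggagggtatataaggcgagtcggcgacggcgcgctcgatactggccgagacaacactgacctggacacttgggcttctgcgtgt
Hsp90b1: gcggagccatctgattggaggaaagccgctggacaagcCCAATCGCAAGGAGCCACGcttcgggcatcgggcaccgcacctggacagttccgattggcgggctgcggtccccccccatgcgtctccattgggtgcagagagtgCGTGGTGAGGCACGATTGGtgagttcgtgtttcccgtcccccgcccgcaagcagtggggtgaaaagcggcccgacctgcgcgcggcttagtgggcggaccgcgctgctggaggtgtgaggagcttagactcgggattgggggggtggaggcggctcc
Calr: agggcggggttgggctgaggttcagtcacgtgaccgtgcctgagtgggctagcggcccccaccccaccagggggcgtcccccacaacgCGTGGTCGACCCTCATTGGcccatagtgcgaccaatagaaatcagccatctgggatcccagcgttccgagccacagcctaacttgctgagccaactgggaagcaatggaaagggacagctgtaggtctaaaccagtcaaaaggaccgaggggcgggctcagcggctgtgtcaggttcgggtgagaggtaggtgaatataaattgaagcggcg
Trib3: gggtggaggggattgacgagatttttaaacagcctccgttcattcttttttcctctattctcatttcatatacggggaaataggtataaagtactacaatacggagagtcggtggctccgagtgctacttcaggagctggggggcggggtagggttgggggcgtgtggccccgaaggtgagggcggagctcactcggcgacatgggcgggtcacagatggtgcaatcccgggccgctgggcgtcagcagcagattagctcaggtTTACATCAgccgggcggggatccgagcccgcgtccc

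The ERSE was present in 39 of 32544 windows (0.12%), and 3 of these 39 belong to members. Hspa5 had 1 match that began at base -65 from the start, Calr had 1 at -162 and Hsp90b1 had 2 at -212 and -107. Another 7 of the 39 windows belong to genes of the ER lists used here, namely Canx, Creld2, Derl3, Dnajc3, Ero1b, Pdia6 and Syvn1. The UPRE core, found in 2.02% of windows, was in that of Hspa5 at -157. The ATF4 element, found in 3.91% of windows, was in those of Trib3 at +15 and Herpud1 at -112. None of the 3 motifs was in the windows of Sdf2l1, Dnajb9, Xbp1, Atf4 or Ddit3. A match describes letters, not a bound site, and its absence concerns only this window.

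The members differed widely in level. By FPKM, which corrects for gene length, Herpud1 was highest (207.4 ± 61.2, SD, n = 20 for this and the next values), then Hspa5 (106.0 ± 28.3), Calr (86.3 ± 21.9) and Atf4 (62.5 ± 15.4). Hsp90b1 (28.7 ± 10.6), Xbp1 (23.6 ± 8.45) and Dnajb9 (22.95 ± 4.87) were in the middle, and Ddit3 (6.10 ± 1.85), Sdf2l1 (4.19 ± 3.98) and Trib3 (2.83 ± 1.50) were lowest. Neighbours kept that order in at least 16 of 20 libraries, except Xbp1 over Dnajb9 (9 of 20) and Sdf2l1 over Trib3 (12 of 20), which were not separated by this measure. By mean FPKM, Herpud1 exceeded 99.2% and Trib3 74.3% of the 29339 genes of the deposited table, which include those removed by the filter on low counts. The low genes rest on few reads, with 30 to 301 counts per library for Sdf2l1, 29 to 206 for Trib3 and 70 to 264 for Ddit3.

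The first question was whether the genes differ by Tecrl genotype. With edgeR, 0 of the 10 members reached an adjusted p below 0.05 for males, for females, for all 20 libraries together, or in the test of whether the genotype effect differs between the labelled sexes. The same count of 0 was given by DESeq2 in each of these 4 comparisons. In the libraries labelled male, edgeR called 0 of 14481 genes (0%), and 2 members, Hspa5 and Dnajb9, had an unadjusted p under 0.05, as did 4.68% of all genes. None passed the study's thresholds, an unadjusted p under 0.05 with a log2 fold change of 0.58 or more in either direction, which 2.01% of genes did. In the libraries labelled female 0.0551% of 14511 genes were called and 2 members, Dnajb9 and Herpud1, had an unadjusted p under 0.05, against 17.9% of genes. Again 0 members passed the study's thresholds, against 9.94% of genes. Over all libraries 0% of 15187 genes were called, and 0 members were among the 4.83% with an unadjusted p under 0.05 or the 1.86% past the study's thresholds.

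Fold changes leaned downward in the libraries labelled male, where 9 of 10 members were below zero with a median log2 fold change of -0.28, beside -0.02 and 52.9% below zero for all genes tested. In those labelled female 3 of 10 were below zero, with a median of 0.07 beside -0.02 and 52.4% below zero for all genes. The female median turned to -0.015 without S3 and to -0.054 without the series covariate, so its direction is not settled. Over all libraries the median was -0.11 beside -0.01, and it was -0.042 without S12 and -0.031 without the 4 libraries rich in atrial markers. Leaving out S7 moved the male median to -0.18. The log2 fold change went from -0.55 to -0.32 for Hspa5, from -0.51 to -0.17 for Hsp90b1, from -0.32 to -0.07 for Calr and from -0.91 to -0.29 for Sdf2l1. It went from -0.20 to -0.044 for Xbp1, from 0.09 to -0.031 for Ddit3 and, away from zero, from -0.23 to -0.47 for Trib3.

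**Figure D1:**
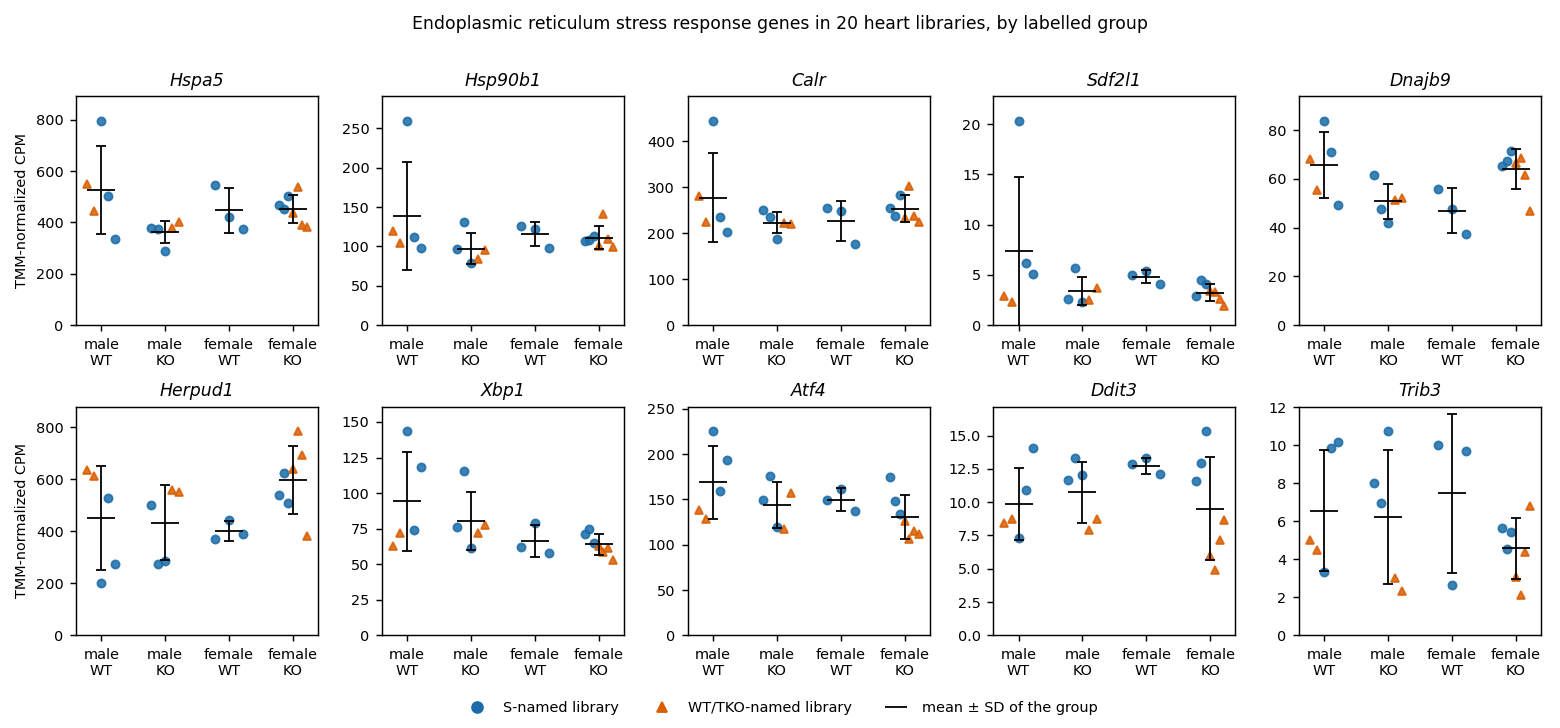
TMM-normalized CPM (vertical axes, from 0) of the 10 genes in each library, by labelled group. Circles are S-named and triangles WT/TKO-named libraries, and bars give the group mean ± SD (the male WT bar of Sdf2l1 is cut at 0). The circle far above its group in the male WT columns of Hspa5, Hsp90b1, Calr and Sdf2l1 is S7, at 795.5, 259.4, 444.7 and 20.3 CPM.

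Hspa5 (ENSMUSG00000026864, chromosome 2, 34771970 to 34777547 on GRCm38) encodes BiP, the main Hsp70 chaperone of the ER and the brake on the sensors. In libraries labelled male WT it had 549.8 CPM in WT1, 442.9 in WT2, 795.5 in S7, 504.6 in S8 and 336.1 in S9. In those labelled male KO it had 376.7 CPM in S10, 372.8 in S11, 290.3 in S12, 378.1 in TKO5 and 401.1 in TKO6. All 5 KO values were below 4 of the 5 WT values, and S9 fell among them, so the groups overlapped. The log2 fold change was -0.55 (SE 0.208, unadjusted p = 0.0224, adjusted p = 0.886). In libraries labelled female it had 376.2 to 544.9 CPM in 3 WT and 382.1 to 539.1 CPM in 7 KO (median 450.8), a log2 fold change of 0.08 (SE 0.170, adjusted p = 0.838). The effects in the labelled sexes differed by -0.57 on the log2 scale (SE 0.272, unadjusted p = 0.0496, adjusted p = 0.321), and by -0.31 without S7.

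Hsp90b1 encodes GRP94, the Hsp90 of the ER. The libraries labelled male WT had 119.3 CPM in WT1, 103.9 in WT2, 259.4 in S7, 111.6 in S8 and 98.4 in S9, and those labelled male KO 79.5 to 130.5 CPM (median 95.7). S7 was the only WT library above the highest KO value, and the log2 fold change of -0.51 (SE 0.252, adjusted p = 0.886) was -0.17 without it. Its exons overlap those of 1810014B01Rik on the other strand and of 2 small genes on its own, and the strand setting of the counting is not given in the sources used here.

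Calr encodes calreticulin, a lectin chaperone that also buffers ER calcium. It had 202.7 to 444.7 CPM in 5 libraries labelled male WT and 187.8 to 250.6 CPM in 5 labelled male KO, with a log2 fold change of -0.32 (SE 0.202, adjusted p = 0.886). In those labelled female it had 176.9 to 254.8 CPM in WT and 223.5 to 302.8 CPM in KO, a log2 fold change of 0.19 (SE 0.168, adjusted p = 0.572) that was 0.043 without S3. Both pairs of groups overlapped.

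Sdf2l1, a small partner of the BiP cycle, had the widest spread for its level over all 20 libraries, a ranking that rests on S7. In the libraries labelled male WT it had 2.90 CPM in WT1, 2.32 in WT2, 20.3 in S7, 6.21 in S8 and 5.10 in S9. No other library of the series exceeded 6.21 CPM, so S7 stood apart from all 19. Its log2 fold change was -0.91 in the libraries labelled male (SE 0.497, adjusted p = 0.886) and -0.34 in those labelled female (SE 0.270, adjusted p = 0.531), the latter -0.17 without S4. The B and plasma cell, adipocyte, mesothelial, atrial, immediate early and fibroblast markers high in S7 are given above, and their part in its Sdf2l1 level was not tested.

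Dnajb9 (ENSMUSG00000014905, chromosome 12, 44205559 to 44210326) encodes ERdj4, a BiP cochaperone that holds IRE1 inactive. It had 55.7, 47.8 and 37.5 CPM in S1, S2 and S3, labelled female WT, and 65.2, 67.5 and 71.6 CPM in S4, S5 and S6, labelled female KO. TKO1 to TKO4, also labelled female KO, had 66.4, 68.6, 61.5 and 46.9 CPM, and TKO4 fell among the WT values. The log2 fold change was 0.53 (SE 0.168, unadjusted p = 0.00747, adjusted p = 0.178), and without S1 it was 0.67 with an adjusted p of 0.0178, in a fit that called 2427 genes.

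In the libraries labelled male the order was opposite, with 49.4 to 83.8 CPM of Dnajb9 in WT and 41.9 to 61.5 in KO (log2 fold change -0.38, SE 0.159, unadjusted p = 0.0344, adjusted p = 0.886). The 2 effects differed by -0.86 on the log2 scale (SE 0.228, unadjusted p = 0.00114, adjusted p = 0.2265). It was the 1 member past the study's thresholds in that test, which 11.2% of 15187 genes passed, and 2 members, Dnajb9 and Hspa5, had an unadjusted p under 0.05, against 15.5% of genes, while 0% were called. In sex-linked genes, S7 to S9 and S1 to S3 looked alike, as did S10 to S12 and S4 to S6, so labelled sex did not separate them.

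Herpud1 (ENSMUSG00000031770, chromosome 8, 94386438 to 94395377) encodes an ER membrane protein of the degradation machinery. It had 368.4, 444.5 and 389.6 CPM in the 3 libraries labelled female WT, and 538.1, 623.7, 510.4, 638.6, 785.3, 692.9 and 383.6 CPM in the 7 labelled female KO (S4 to S6, then TKO1 to TKO4). All KO libraries but TKO4 were above the WT values, with a log2 fold change of 0.47 (SE 0.214, unadjusted p = 0.0450, adjusted p = 0.270). In those labelled male the log2 fold change was -0.04 (SE 0.260, adjusted p = 0.984).

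Herpud1 was also low in the libraries rich in atrial markers. S7, S9, S11 and S12 had 201.0, 274.6, 273.6 and 284.7 CPM, below all 16 other libraries, which had 368.4 to 785.3 CPM (median 543.8). Of all 15187 genes, 1.23% were lower in those 4 libraries without overlap and 2.63% higher. The other 9 members overlapped. These 4 libraries are 2 of the 5 labelled male WT and 2 of the 5 labelled male KO, and whether their atrial RNA has a part in the Herpud1 level was not tested.

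**Figure D2:**
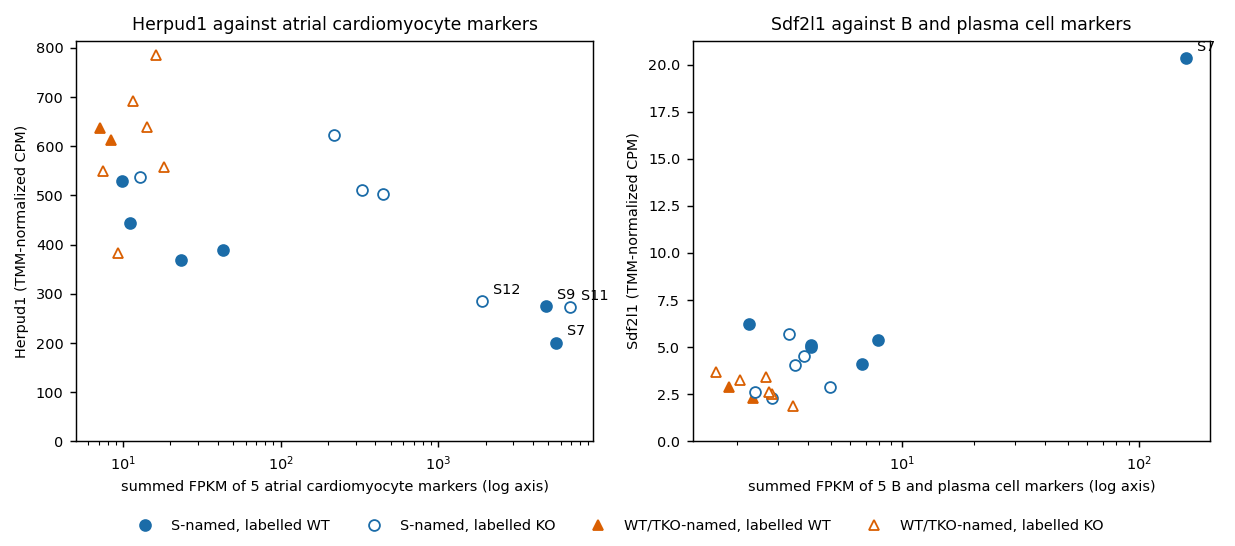
TMM-normalized CPM of Herpud1 against summed FPKM of 5 atrial markers (left) and of Sdf2l1 against 5 B and plasma cell markers (right), with log horizontal axes. Each point is 1 library, filled for labelled WT and open for labelled KO. The 4 libraries over 1000 FPKM of atrial markers have 201.0 to 284.7 CPM of Herpud1, and S7 alone has high values in the right panel.

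Of the transcription factors, Xbp1 and Atf4 were highest in S7, at 143.6 and 225.6 CPM. The deposited counts are per gene, so spliced and unspliced Xbp1 were not separated, and ATF4 protein is set largely by translation, which these data do not measure. Xbp1 had log2 fold changes of -0.20 (SE 0.209, adjusted p = 0.887) in the libraries labelled male and 0.09 (SE 0.139, adjusted p = 0.778) in those labelled female. For Atf4 they were -0.22 (SE 0.155, adjusted p = 0.886, and -0.12 without S12) and 0.03 (SE 0.137, adjusted p = 0.945). Ddit3, which encodes CHOP, a factor of prolonged stress, had 0.09 (SE 0.172, adjusted p = 0.933) and 0.06 (SE 0.201, adjusted p = 0.911). Trib3, a pseudokinase and ATF4 target, had -0.23 (SE 0.316, adjusted p = 0.915) and -0.52 (SE 0.453, adjusted p = 0.570). Trib3 had 10.02, 2.65 and 9.71 CPM in S1, S2 and S3, labelled female WT, and 2.12 to 6.79 CPM in the 7 labelled female KO (median 4.54). S2 thus lay among the KO libraries, and leaving out 1 library moved the female log2 fold change of Trib3 from -0.92 (without S2) to -0.24 (without S1) and the male one from -0.47 (without S7) to -0.086 (without TKO6). The groups overlapped in each of these 8 comparisons.

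Further genes of the pathway, in 7 lists, were tested in the same fits, and edgeR called 0 of them for genotype in the 4 comparisons. Of 24 ER chaperones and folding enzymes, 22 had a log2 fold change below zero in the libraries labelled male, as did 52.9% of all genes (median -0.21 beside -0.02). An unadjusted p under 0.05 was held by 4 of them and by 4.68% of all genes. The lowest log2 fold change was that of Manf, a secreted ER stress protein (-0.52, SE 0.219, adjusted p = 0.886). The male values of the lists are not given without S7, which moved those of the members. In those labelled female 12 of 24 were below zero and 3 had an unadjusted p under 0.05, where 17.9% of all genes did. Of 16 ER translocation genes, 15 were below zero in the male comparison (median -0.15) and 8 in the female one, where Spcs3, a signal peptidase subunit, was highest (0.60, SE 0.152, adjusted p = 0.145). The 31 tested ATF4 targets and integrated stress response genes had medians of -0.12 and, for 30 tested, 0.16, with 1 and 4 genes at an unadjusted p under 0.05, beside the same 4.68% and 17.9%. All 6 sensor and processing genes were above zero in the female comparison (median 0.16, where 52.4% of all genes were below zero), led by Ern1, which encodes IRE1 (0.49, SE 0.220, adjusted p = 0.268).

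**Figure D3:**
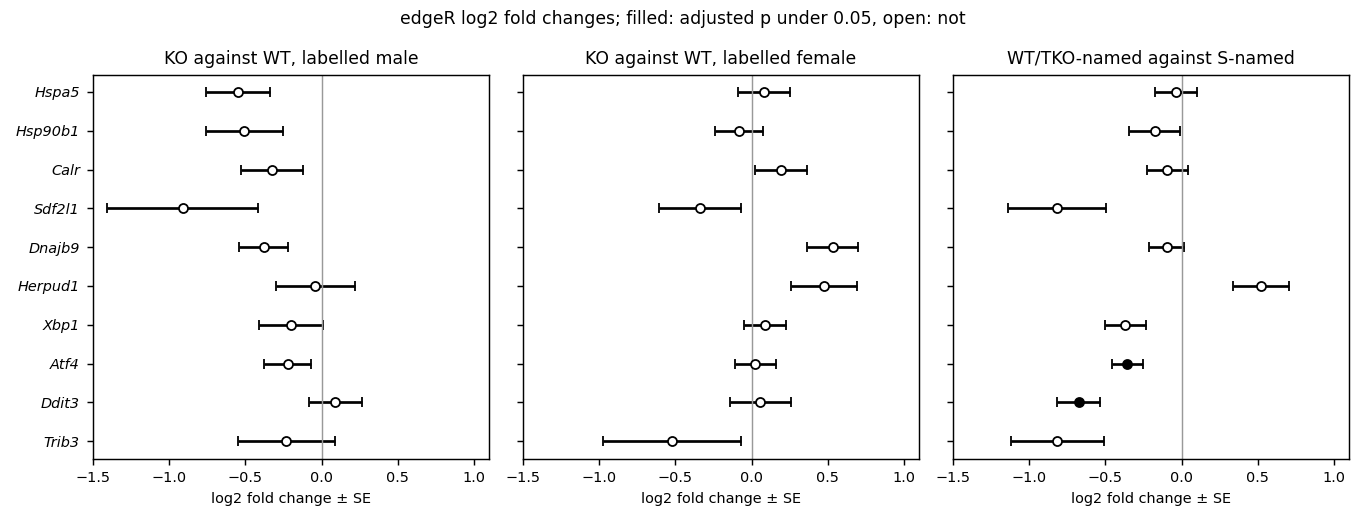
Log2 fold changes with SE (edgeR) of the 10 genes for KO against WT in libraries labelled male (left) and female (middle), and for WT/TKO-named against S-named libraries (right). Filled points, Ddit3 and Atf4 in the right panel only, have an adjusted p under 0.05.

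The second question was whether the genes differ between the library series, with group held in the fit. Holding the labelled group does not hold sex-linked expression. Among libraries labelled male WT, S7 to S9 expressed Xist, and WT1 and WT2 the Y-linked genes. Among those labelled female KO, S4 to S6 expressed the Y-linked genes, and TKO1 to TKO4 Xist. Ddit3 and Atf4 were lower in the WT/TKO-named libraries, the 2 of 10 members called. Of all 15187 genes 14.6% were called and 8.09% were called lower, so the count of members is near the background. With unadjusted p under 0.05 there were 6 members, against 30.9% of genes, and 3 passed the study's thresholds, against 12.9%. The median over members was -0.27 beside 0.00 for all genes, and it was -0.17 without S7 and -0.15 in the libraries labelled KO alone. The chaperone genes Hspa5 (-0.04, SE 0.137), Hsp90b1 (-0.18, SE 0.166), Calr (-0.09, SE 0.135) and Dnajb9 (-0.10, SE 0.114) had adjusted p of 0.498 to 0.881. Without S7 these differences were 0.062, -0.014, 0.021 and -0.050.

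Ddit3 (ENSMUSG00000025408, chromosome 10, 127290774 to 127296288) had 8.40 and 8.71 CPM in WT1 and WT2, 7.94 and 8.78 in TKO5 and TKO6, and 5.93, 4.94, 7.13 and 8.69 in TKO1 to TKO4. The 12 S-named libraries had 7.30 to 15.4 CPM (median 12.46). The lowest of these was S7, and the next was S8 at 10.95, so S7 was the only S-named library within the range of the other series. Among libraries labelled KO the series did not overlap (4.94 to 8.78 against 11.6 to 15.4 CPM, n = 6 each), which held for 5.43% of all genes and for no other member. In these libraries the series partly coincides with sex-linked expression. The log2 fold change was -0.67 (SE 0.140, adjusted p = 0.0037), and without 1 library it ran from -0.75 to -0.60. Ddit3 exons overlap those of Mars on the other strand and a second annotated Ddit3 entry, so its reads could have been split.

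Atf4 had 106.0 to 157.7 CPM in the 8 WT/TKO-named libraries (median 121.8) and 119.9 to 225.6 CPM in the 12 S-named ones (median 154.6), with overlap. Its log2 fold change was -0.36 (SE 0.102, adjusted p = 0.0241). The call was lost without WT1 (adjusted p = 0.0511), WT2 (0.0628), TKO5 (0.0545) or S4 (0.0530), and in the libraries labelled KO alone (-0.29, adjusted p = 0.125).

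Another 4 members were between an adjusted p of 0.0622 and 0.0919. Trib3 had a log2 difference of -0.81 (SE 0.305, adjusted p = 0.0775), Sdf2l1 of -0.82 (SE 0.322, adjusted p = 0.0919) and Xbp1 of -0.37 (SE 0.137, adjusted p = 0.0744). Herpud1 had one of 0.52 (SE 0.184, adjusted p = 0.0622), the 1 member with a higher estimate in the WT/TKO series. Herpud1 had 383.6 to 785.3 CPM (median 625.2) in the WT/TKO-named and 201.0 to 623.7 CPM (median 417.1) in the S-named libraries, and Trib3 had 2.12 to 6.79 CPM (median 3.73) against 2.65 to 10.7 CPM (median 7.47). Both overlapped. DESeq2 called Trib3, Sdf2l1 and Herpud1 as well, with 2927 genes called in all.

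Of 31 tested genes in the list of ATF4 targets and the integrated stress response, 8 were lower in the WT/TKO-named libraries, beside 8.09% of all genes, and 1 was higher. The list median was -0.11 beside 0.00 for all genes. Asns, asparagine synthetase, had 0.989 to 3.78 CPM in the WT/TKO series and 1.80 to 11.6 CPM in the S series (log2 difference -1.22, SE 0.247, adjusted p = 0.00322). Mthfd2, a mitochondrial folate enzyme, had 1.98 to 3.76 against 3.88 to 11.3 CPM, without overlap, which held for 1.03% of all genes (-1.16, SE 0.193, adjusted p = 0.000846). Nupr1, a stress-induced chromatin protein, had 3.95 to 8.38 against 8.37 to 29.5 CPM (-1.13, SE 0.219, adjusted p = 0.00239). These 3 are among the called genes of largest fold change, which is how they were chosen, and Chac1, which was not called, had a value of 0.95 (adjusted p = 0.0885).

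Gdf15, a secreted stress hormone, differed by -1.34 (SE 0.327, adjusted p = 0.00984), and the serine synthesis enzymes Phgdh and Psat1 by -1.03 (SE 0.335, adjusted p = 0.0439) and -0.82 (SE 0.237, adjusted p = 0.0260). The other lower genes, Cebpb (-0.51) and Atf5 (-0.39), and the higher one, the amino acid transporter Slc7a1 (0.49), fall outside the rule for named genes and were chosen after their values were seen. The aminoacyl-tRNA synthetases of the list were not called. Without the 4 libraries rich in atrial markers, 4 genes of the list were lower, in a fit that called 1502 genes. Without 1 library at a time the count was 6 to 8.

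**Figure D4:**
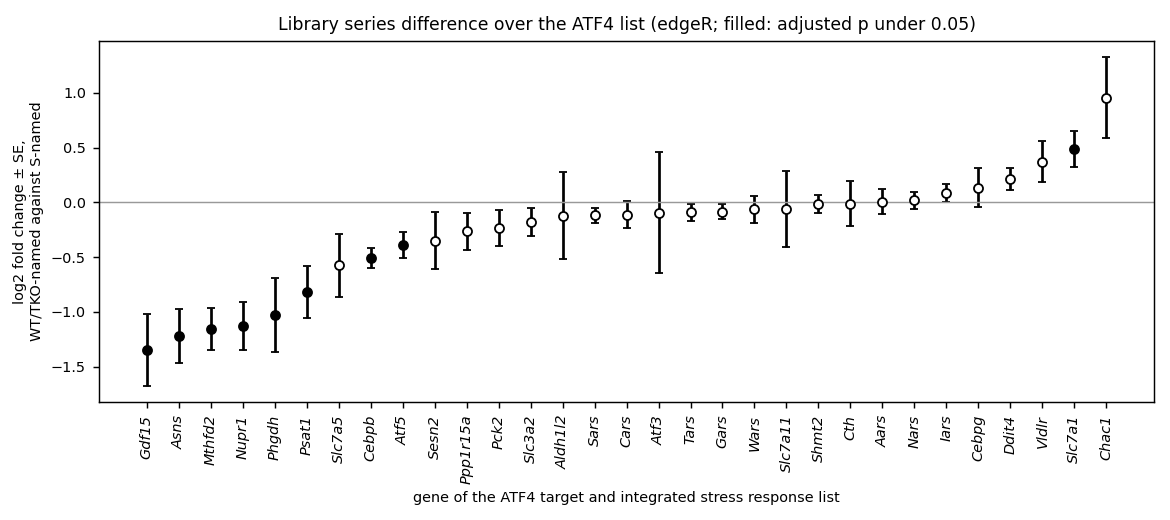
Log2 difference with SE between WT/TKO-named and S-named libraries for the 31 tested genes of the ATF4 list, ordered by value. Filled points have an adjusted p under 0.05 (edgeR), 8 below zero from Gdf15 (-1.34) to Atf5 (-0.39) and 1 above, Slc7a1 (0.49).

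The other lists are to be read beside the 14.6% of all genes called between series, and none of their counts stands as a result about the list. Of 24 chaperones and folding enzymes, Manf (-0.60, SE 0.156, adjusted p = 0.0148) and Txndc5, a disulfide isomerase (-0.47, SE 0.149, adjusted p = 0.0395), were lower, and Cdnf, a relative of Manf, was higher (0.96, SE 0.216, adjusted p = 0.00681). Of 16 translocation genes, Sec61b (-0.43, SE 0.122, adjusted p = 0.0223) and Sec11c (-0.38, SE 0.101, adjusted p = 0.0176) were lower. Atf6b (-0.37, SE 0.112, adjusted p = 0.0298) was lower among 6 sensor genes, and Bax, an executor of cell death (-0.52, SE 0.145, adjusted p = 0.0207), among 8 cell death genes. None of 15 degradation genes or of 5 eIF2alpha kinase and phosphatase genes was called. The series also differed in 5 macrophage markers, with 125.2 to 230.1 FPKM in the S-named and 93.9 to 120.9 FPKM in the WT/TKO-named libraries. Medians also differed for the adipocyte (10.6 against 0.627 FPKM), red blood cell (750.8 against 273.6 FPKM) and atrial markers (272.4 against 10.4 FPKM), with overlap. The part of these markers in the differences between series, those of Ddit3 and Atf4 included, was not tested.

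Across the libraries some pairs of members varied together. Of 45 pairs, 12 were correlated positively and 3 negatively over 20 libraries at an adjusted p under 0.05 (Pearson's r of log2 CPM, two-sided permutation test with 100000 resamples). By Spearman's rho 9 were positive and 3 negative. The share of such pairs among all genes was not computed, so these counts are not a result about the members. The highest r was shared by Hspa5 with Calr and Hsp90b1 with Calr. For Hspa5 and Calr it was 0.881 (adjusted p = 0.00015, Spearman's rho 0.767, adjusted p = 0.0015). It was 0.734 without S7 and S12, the 2 libraries farthest from the median of Hspa5, 0.878 within the S series (n = 12, adjusted permutation p = 0.00664) and 0.898 within the WT/TKO series (n = 8, adjusted exact permutation p = 0.116), where it was 0.180 without WT1 and TKO2. For Hsp90b1 and Calr it was 0.881 (adjusted p = 0.000225, rho 0.782, adjusted p = 0.0015), 0.644 without S7 and S12, and 0.914 within the WT/TKO series (n = 8, adjusted exact permutation p = 0.0223). Within the S series it was 0.888 (adjusted permutation p = 0.0139), but 0.467 without S7 and S12 and with a rho of 0.559 (adjusted permutation p = 0.286). Hspa5 and Hsp90b1 had an r of 0.839 (adjusted p = 0.0003), and 0.609 without S7 and S12. Their r was 0.442 in the S series without S7 and S12 and 0.468 in the WT/TKO series without WT1 and TKO2. Pairs that included other members were also closely correlated, and the part of the promoter motifs in any correlation was not tested. Xbp1 and Atf4 had an r of 0.852 (adjusted p = 0.00015, rho 0.802, adjusted p = 0.0015) and 0.714 without S7 and S9. Dnajb9 had an r of 0.799 with Calr (adjusted p = 0.00015, rho 0.756, adjusted p = 0.0015), and 0.713 without S7 and S3. With Hspa5 its r was 0.783 (adjusted p = 0.00045), 0.678 without S7 and S12, and its rho of 0.821 (adjusted p = 0.0009) was the highest of the 45 pairs.

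The lowest r was that of Herpud1 and Xbp1, at -0.623 (adjusted p = 0.0158, rho -0.329, adjusted p = 0.337). It was -0.262 without S7 and S11, -0.636 in the S series (adjusted permutation p = 0.0829) and 0.175 in the WT/TKO series (n = 8, adjusted exact permutation p = 0.776), so the relation rests on a few libraries. The other negative pairs were Herpud1 with Atf4 (-0.601, -0.349 without S7 and S11) and Herpud1 with Sdf2l1 (-0.556, -0.270 without S7). Within the WT/TKO series these were -0.076 and 0.60. By rank the first passed (rho -0.561, adjusted permutation p = 0.0442) and the second did not (rho -0.389, adjusted permutation p = 0.227). By rank Herpud1 was also negatively correlated with Trib3 (rho -0.594, adjusted permutation p = 0.0378, r -0.455, and -0.705 without S7 and S11) and with Ddit3 (rho -0.558, adjusted permutation p = 0.0442, r -0.418, and -0.650 without S7 and S11). Their r were -0.065 and 0.421 within the S series (-0.475 and -0.231 without S7) and -0.560 and -0.662 within the WT/TKO series. After removing group and series means they were -0.117 and 0.155, so these relations partly reflect the difference between series. Within the S series 11 pairs passed, all positive, and within the WT/TKO series 2 did, both positive, while 0 pairs passed by rho in either series (lowest adjusted permutation p 0.0673 and 0.0513). Each r mixes series, groups and the libraries with other cell types.

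**Figure D5:**
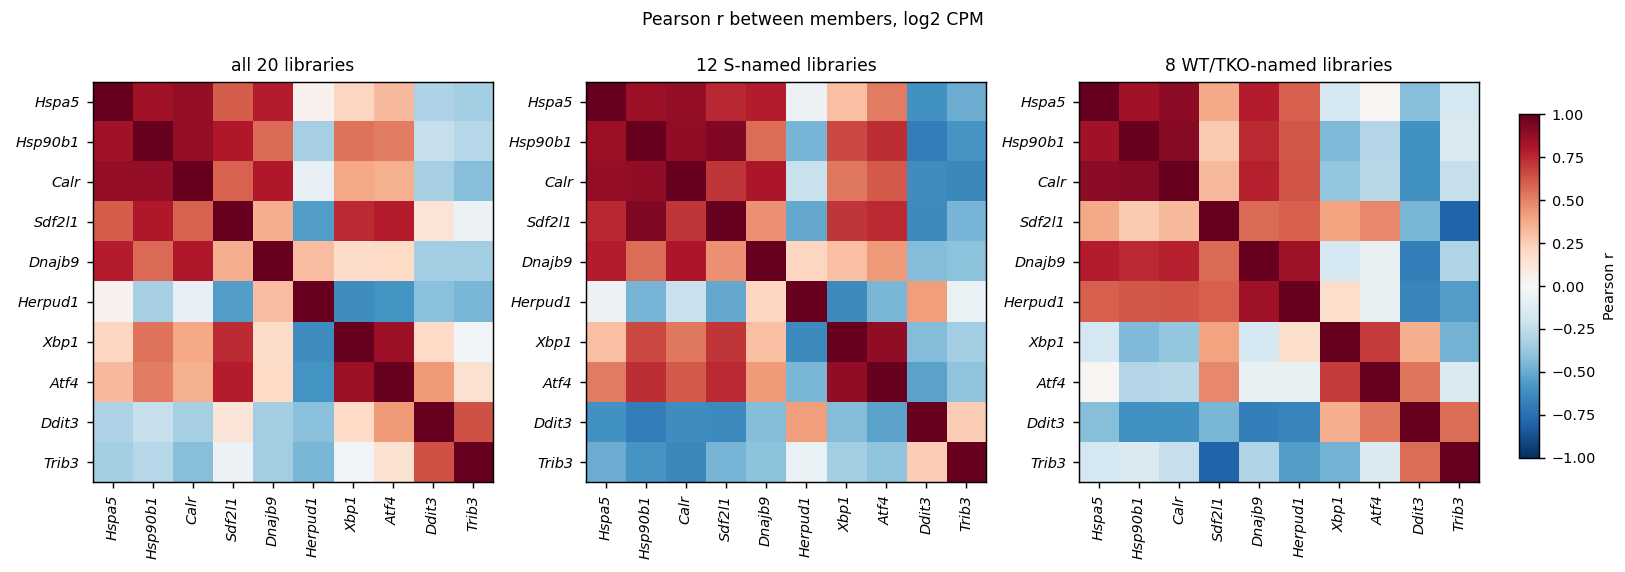
Pearson's r of log2 CPM for each pair of members over all 20 (left), 12 S-named (middle) and 8 WT/TKO-named libraries (right), on a colour scale from -1 to 1. Hspa5, Hsp90b1 and Calr have r from 0.837 to 0.914 in the 3 panels with all libraries of each kept, while Herpud1 and Xbp1 change from -0.636 to 0.175 between the series.

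For each member the 3 genes of most similar pattern among all genes tested are given, with r of log2 CPM over 20 libraries as the measure. Calr was closest to Snd1 (0.939), Pdia6 (0.937) and Tmed10 (0.934), and Hspa5 to Canx, Prkar1a and Stk24 (0.893 each). Hsp90b1 was closest to Ezr (0.906), Calr (0.881) and Sgpl1 (0.871), which fell to 0.744, 0.714 and 0.550 without S7. Canx and Pdia6, an ER lectin chaperone and a disulfide isomerase, are on the lists used here. Sdf2l1 was closest to Cd82 (0.869), Manf (0.859) and Eif5 (0.852), which fell to 0.749, 0.682 and 0.690 without S7. Dnajb9 was closest to Bzw2 (0.924), Akt2 (0.920) and Eif2s1 (0.912).

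Herpud1 was closest to Tcp11l2 (0.954), Pdp2 (0.925) and Asb14 (0.925). Xbp1 and Atf4 shared Gorasp2 (0.907 and 0.864), with Atp1b3 (0.916) and Golt1b (0.905) for Xbp1 and Rbm3 (0.924) and Tmem251 (0.856) for Atf4. Ddit3 was closest to Cox19 (0.920), Slfn2 (0.919) and Ifi209 (0.912), and Trib3 to Fam102a (0.899), Ccdc8 (0.865) and Rhpn2 (0.858).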

How the data were processed

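Heart RNA was sequenced in 20 poly-A libraries. The submitters' notes name HISAT2, HTSeq 0.6.1p2, DESeq2 1.26.0 and GRCm38. The authors deposited raw counts per gene and FPKM, computed from those counts with 1 gene length each and the total of the library. Strand setting and annotation are not given in the sources used here, and coordinates are from GENCODE M21, which holds 29328 of the 29339 gene IDs. Groups came from the labels alone.

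From the counts, edgeR 4.0.16 (TMM, robust quasi-likelihood test, R 4.3.3) tested genotype separately by labelled sex (covariate: library series), over all libraries with labelled sex and series, between sexes (difference of the 2 effects), and the library series with group in the fit. With the series covariate, the female genotype effect comes from the S-named libraries, 3 of each genotype. Genes needed at least 10 counts in at least 3 libraries, and p-values were adjusted over all genes tested (Benjamini-Hochberg, called under 0.05). CPM in the text are TMM-normalized unless given of the library total. Correlations used scipy 1.17.1 and promoters came from RefSeq (GRCm38.p6, all 10 members matched). Alternatives were DESeq2 1.42.0, limma 3.58.1 on log2(FPKM + 1), other normalization and filters, other sets of libraries, other covariates, and each library left out. The fits without the libraries rich in atrial markers, the Y-linked covariate between series and the counts over the ATF4 list under each alternative were chosen after seeing the data. Named genes are the members, for each list and comparison the called genes (at most 6 of largest fold change) or else the extremes, and the 3 genes most alike to each member. The members, lists and tests were chosen with earlier results of these data known. Library totals of 12540002 to 20038593 set the precision, and the floor was 3 counts, which each member exceeded in each library.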

Additional observations from a re-analysis of the deposited data

Results flagged for a closer look

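In groups of 4 to 10 libraries, 5 of 30 member and group combinations held a library far from its group by Dixon's 95% critical value, where chance gives about 1 in 20. S7, labelled male WT, had 259.4 CPM of Hsp90b1 (98.4 to 119.3 in the other 4) and 20.3 CPM of Sdf2l1 (2.32 to 6.21). S12, labelled male KO, had 290.3 CPM of Hspa5 (372.8 to 401.1 in the other 4). Among libraries labelled female KO, TKO2 had 141.4 CPM of Hsp90b1 (98.7 to 113.2 in the other 6) and TKO4 had 46.9 CPM of Dnajb9 (61.5 to 71.6).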

How the results depend on the processing

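No genotype comparison called a member under DESeq2, upper-quartile normalization, limma on log2(FPKM + 1), the stricter filter or the other sets of libraries and covariates tried. With no filter on low counts 1 member, Dnajb9, was called in the female comparison, among 1110 of 27319 genes. Members called when 1 library was left out ran from 0 to 1 in the female comparison and in the difference between sexes, with the 1 being Dnajb9 without S1 in each (adjusted p = 0.0178 and 0.0208, with 2427 of 14358 and 1121 of 15120 genes called). In the series comparison they ran from 1 to 4. The fits with 1 called from 1547 of 15152 to 2254 of 15160 genes, and those with 4 called 2314 of 15127 and 2307 of 15114. The count of members was 5 under DESeq2 (2927 of 15187 genes called) and 5 with Y-linked expression in the fit (2616 of 15187). It was 1 in the libraries labelled KO alone (1611 of 14540), and Ddit3 was called in every fit. The ATF4 list had 4 genes lower without the libraries over 1000 FPKM of atrial markers and 6 to 9 in the other fits. Of 1302 values of single members or pairs under the alternatives, 1203 kept their direction and side of the threshold and 74 changed sign, which concerned log2 fold changes that were not called. With the S-named libraries alone, the value was 0.071 for Herpud1 and 0.132 for Trib3 in the male comparison and 0.052 for Dnajb9 in the fit of all libraries. With the WT/TKO-named libraries alone, the value was 0.232 for Sdf2l1, 0.135 for Xbp1, 0.028 for Atf4 and -0.048 for Ddit3 in the male comparison and 0.242 for Sdf2l1, -0.179 for Herpud1, 0.145 for Xbp1, 0.039 for Atf4 and -0.037 for Ddit3 in the fit of all libraries. Adding Y-linked expression to the fit, the value was 0.231 for Sdf2l1, 0.127 for Xbp1, 0.019 for Atf4 and -0.062 for Ddit3 in the male comparison and -0.103 for Herpud1, 0.082 for Xbp1 and -0.180 for Ddit3 in the fit of all libraries. Without the libraries over 1000 FPKM of atrial markers, the value was 0.104 for Xbp1 in the male comparison, 0.051 for Calr, 0.172 for Dnajb9, 0.071 for Xbp1 and -0.043 for Ddit3 in the fit of all libraries and 0.018 for Sdf2l1, 0.063 for Xbp1, 0.026 for Atf4 and -0.312 for Trib3 in the difference between sexes. Without the series covariate, the value was -0.054 for Xbp1, -0.194 for Atf4 and -0.423 for Ddit3 in the female comparison and -0.133 for Ddit3 in the fit of all libraries. From 1 fit of all libraries, the value was 0.051 for Hsp90b1, -0.004 for Atf4 and -0.108 for Ddit3 in the female comparison. With upper-quartile normalization, the value was 0.012 for Dnajb9 in the fit of all libraries. With limma on log2(FPKM + 1), the value was 0.026 for Dnajb9 in the fit of all libraries and -0.037 for Trib3 in the difference between sexes. In the libraries labelled KO alone, the value was 0.002 for Hspa5 in the series comparison. Leaving out 1 library moved these across zero: in the male comparison -0.242 to 0.216 for Herpud1 and -0.031 to 0.223 for Ddit3, in the female comparison -0.029 to 0.246 for Hspa5, -0.002 to 0.228 for Xbp1, -0.083 to 0.109 for Atf4 and -0.060 to 0.151 for Ddit3, in the fit of all libraries -0.117 to 0.066 for Dnajb9, -0.180 to 0.026 for Calr, -0.128 to 0.039 for Xbp1 and -0.057 to 0.048 for Ddit3, in the difference between sexes -0.204 to 0.477 for Trib3 and in the series comparison -0.097 to 0.062 for Hspa5 and -0.141 to 0.021 for Calr. The r of Herpud1 and Xbp1 was -0.427 after removing group and series means (adjusted permutation p = 0.0956). After that step 15 pairs were correlated positively and 11 negatively by r, and 10 and 3 by rho. The 11 were Trib3 with Hspa5, Hsp90b1, Calr, Sdf2l1, Dnajb9, Xbp1 and Atf4 and Ddit3 with the first 4 of these, and the negative Herpud1 pairs were not among them. The r of the 4 Ddit3 pairs went from -0.522, -0.633, -0.547 and -0.572 to -0.271, -0.367, -0.257 and -0.288 without S7. None of these 4 passed by rho, where the 3 were Trib3 with Calr, Sdf2l1 and Xbp1. The cause of these shifts was not tested. No paired analysis was possible because the numbers in the library names run across groups and mark no shared animal or batch. Counting error limits Sdf2l1, Trib3 and Ddit3 most.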
